A study of Mus musculus with 4 samples.

Results

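Small nucleolar RNA (snoRNA) genes were examined for CUT&Tag signal of PPP2CA, which is the catalytic subunit of the phosphatase PP2A, in mouse haematopoietic stem cells. Every gene of biotype snoRNA on chromosomes 1 to 19, X and Y of a RefSeq gene table (GRCm38.p6) was taken with 1 kb on each side as its window. The table held 1340 such genes of 49943 genes in all. The 10 snoRNA entries placed below 3 Mb, where most mouse chromosomes are unassembled, were left out, which gave 1330 windows of 49603 genes analysed.

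The cells were primary haematopoietic stem cells from the marrow of mice that were wild type for Ppp2ca, with no other genotype, strain, age or treatment given in the labels, and 100000 cells went into an assay per the design text. They were profiled by CUT&Tag, in which an antibody brings a transposase to the chromatin and the transposase tags nearby DNA for sequencing. Of 4 libraries, 2 were made with PPP2CA antibody and 2 with immunoglobulin G (IgG) as the control. The libraries of an antibody are not described as separate animals, so differences between them may be technical.

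snoRNAs guide the chemical modification of ribosomal RNA in the nucleolus. Box C/D snoRNAs (Snord genes) guide methylation of ribose and box H/ACA snoRNAs (Snora genes) guide the conversion of uridine to pseudouridine, each within a protein complex called a snoRNP. In mammals most are cut out of the introns of a host gene, often a ribosomal protein gene or a long non-coding RNA (lncRNA) of the Snhg family, so that the promoter of the host also drives the snoRNA. Many of these hosts start transcription within a run of pyrimidines and are known as 5′ terminal oligopyrimidine (TOP) genes.

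The promoters of 6 hosts show what lay under the strongest regions and what lay at the starts of hosts with the most snoRNA genes. They are RefSeq sequences of GRCm38.p6, 5′ to 3′ on the strand of the gene. Each runs from 250 bases before to 50 after an annotated start. Capitals mark a pyrimidine run, counted here as a C followed by at least 4 bases that are C or T. It had to begin within 20 bases of the start. Gas5 (chr1:161034916-161035215, + strand, around one of its 2 annotated starts), Zfas1 (chr2:167062684-167062983, + strand) and 2410006H16Rik (chr11:62602627-62602926, + strand) are the lncRNA hosts of the best marked windows. Snhg1 (chr19:8723237-8723536, + strand) is shown as a host of 8 snoRNA genes, of which 4 windows were marked. Snhg14 (chr7:60450128-60450427, − strand) and Rian (chr12:109603695-109603994, + strand) are the lncRNAs of the imprinted clusters, which held the most snoRNA genes and no marked window.
Gas5: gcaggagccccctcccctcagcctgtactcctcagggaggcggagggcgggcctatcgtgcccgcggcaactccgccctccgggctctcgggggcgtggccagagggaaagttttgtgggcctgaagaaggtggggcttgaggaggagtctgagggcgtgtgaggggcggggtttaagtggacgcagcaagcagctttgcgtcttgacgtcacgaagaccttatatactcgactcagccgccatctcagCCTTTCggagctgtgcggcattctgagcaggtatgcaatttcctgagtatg
Zfas1: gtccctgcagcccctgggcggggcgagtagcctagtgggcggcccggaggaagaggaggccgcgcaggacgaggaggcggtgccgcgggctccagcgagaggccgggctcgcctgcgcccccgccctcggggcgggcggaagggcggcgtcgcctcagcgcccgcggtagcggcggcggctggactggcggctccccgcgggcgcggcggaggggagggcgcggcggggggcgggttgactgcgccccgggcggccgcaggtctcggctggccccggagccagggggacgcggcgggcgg
2410006H16Rik: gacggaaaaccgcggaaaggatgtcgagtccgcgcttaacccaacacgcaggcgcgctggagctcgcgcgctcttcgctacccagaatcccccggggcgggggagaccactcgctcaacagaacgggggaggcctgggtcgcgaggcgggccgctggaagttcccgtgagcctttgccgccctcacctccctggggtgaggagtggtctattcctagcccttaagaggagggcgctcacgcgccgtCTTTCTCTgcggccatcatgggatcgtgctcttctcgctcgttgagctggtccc
Snhg1: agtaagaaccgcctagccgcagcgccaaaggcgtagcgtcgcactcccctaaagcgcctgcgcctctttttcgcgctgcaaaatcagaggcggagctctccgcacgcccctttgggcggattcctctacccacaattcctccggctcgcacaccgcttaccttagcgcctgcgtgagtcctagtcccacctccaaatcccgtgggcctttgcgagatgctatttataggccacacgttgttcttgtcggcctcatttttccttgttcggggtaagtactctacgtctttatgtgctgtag
Snhg14: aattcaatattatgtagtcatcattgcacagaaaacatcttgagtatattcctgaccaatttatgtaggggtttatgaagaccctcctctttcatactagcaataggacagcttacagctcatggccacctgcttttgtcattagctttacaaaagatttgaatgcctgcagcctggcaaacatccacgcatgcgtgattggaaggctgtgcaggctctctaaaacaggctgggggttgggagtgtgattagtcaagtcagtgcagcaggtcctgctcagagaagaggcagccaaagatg
Rian: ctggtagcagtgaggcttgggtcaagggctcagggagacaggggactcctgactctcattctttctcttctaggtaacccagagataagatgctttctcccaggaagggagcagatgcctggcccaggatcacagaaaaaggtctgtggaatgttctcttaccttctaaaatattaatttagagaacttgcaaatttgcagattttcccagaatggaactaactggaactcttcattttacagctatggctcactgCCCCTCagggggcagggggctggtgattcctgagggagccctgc
The 4 promoters under a region had a GC content of 62% at Gas5, 83% at Zfas1, 65.7% at 2410006H16Rik and 56.7% at Snhg1. The promoters of Snhg14 and Rian, without a region, had 45% and 49.3%. Snhg1 held 25 CG dinucleotides, Snhg14 held 2 and Rian held 0. A pyrimidine run that begins with C stood near the start in Gas5 (6 bases), 2410006H16Rik (8 bases) and Rian (6 bases). Zfas1, Snhg1 and Snhg14 had none by this rule. In Snhg1 a stretch of pyrimidines that begins with T (tttttcctt) follows the start and was not counted.

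The PPP2CA libraries (1 and 2) held 16811 and 17686 peaks, and the IgG libraries (1 and 2) held 561 and 310. The number of fragments at each summit, recovered from the authors' fold and p-value, had a median of 18 in each PPP2CA library and of 4 in each IgG library. The lowest summit held 5 fragments in the PPP2CA lists and 3 in the IgG lists, and PPP2CA libraries had 9.34 to 9.61 times the genome background of IgG libraries, so a missing IgG peak says less than a missing PPP2CA peak. At 6930 summits that the PPP2CA libraries shared within 100 bp, their fragment counts differed by less than counting noise (chi-square over degrees of freedom 0.783). Peaks without a shared summit did not enter this value, which favours agreement. The PPP2CA libraries were counted as 1 sample, and each library's value is shown without a mean or SD. Of genes that mark haematopoietic stem and progenitor cells, 5 of 10 (Kit, Runx1, Tal1, Meis1 and Mecom) had a PPP2CA region within 1 kb of a gene boundary, and Gata2, Hlf, Procr, Cd34 and Slamf1 had none. The lymphoid markers Cd3e, Cd3g, Ms4a1 and Cd79a had none, and neither had any of the 4 stromal markers (Pdgfra, Lepr, Cxcl12 and Cdh5). Over all protein-coding genes the share with such a region was 39.5%, and the marker lists were not tested against it.

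PPP2CA was found at a small share of snoRNA loci. A peak lay in 76 windows (5.71%) in PPP2CA 1 and in 84 windows (6.32%) in PPP2CA 2, and 71 of the 1330 windows (5.34%, exact 95% interval 4.19 to 6.69) held a peak in both. IgG 1 had a peak in 4 windows (0.301%) and IgG 2 in 0, which allows a share of up to 0.277%. In all 71 windows the peaks of PPP2CA 1 and 2 overlapped in 1 region. With the windows that carried an IgG peak left out, 69 (5.19%, 4.06 to 6.52) are called marked below. The counts rest on the flank: without it 20 snoRNA genes held a peak of both PPP2CA libraries on the gene itself, and 46 windows held a summit of both.

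These shares stood low among genes of the table treated in the same way. A peak in both PPP2CA libraries was found at 25.9% of all 49603 genes with their bodies and flanks, and at 8.71% of 1228 microRNA genes, 5.92% of 997 small nuclear RNA genes and 34.2% of 403 transfer RNA genes. With no IgG peak the share was 25.1% for all genes, 8.63% for microRNA, 3.91% for small nuclear RNA and 34.2% for transfer RNA genes. IgG peaks, near 0.301% of snoRNA genes, were near 1.20% of all genes, 0.0814% of microRNA genes, 2.11% of small nuclear RNA genes and 0% of transfer RNA genes. Longer genes have wider windows, so the figure for all genes is not on an equal footing with that for snoRNAs. No test was made of these differences, because snoRNA genes of a host share regions and because 2 against 2 libraries are too few for a permutation test to reach a usual threshold.

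Genes with an established snoRNA name made up 34 of the 69 marked windows. Of windows of named box H/ACA genes (Snora), 14 of 39 were marked (35.9%, 21.2 to 52.8), and of box C/D genes (Snord) 20 of 93 (21.5%, 13.7 to 31.2), and these intervals overlap. Entries with a provisional LOC symbol had 26 of 278 (9.35%) and those with a Gm symbol 8 of 910 (0.879%, 0.38 to 1.72). The Snord and Snora genes together had 34 of 132 (25.8%, 18.5 to 34.1), against 35 of 1198 (2.92%, 2.04 to 4.04) for all other symbols. The named genes also lay closer to a host boundary, at a median of 1480 bp against 25800 bp for the others. Within 1 kb of a host boundary the shares were 52.9% of 51 named genes and 34.5% of 55 others. Between 1 and 2 kb they were 21.7% of 23 and 26.5% of 49.

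Most marked snoRNA genes lay close to a boundary of their host. The host was taken as the shortest protein-coding or lncRNA gene that contains the snoRNA, which gave 793 snoRNA genes in 460 hosts and left 537 without one. Of the 69 marked windows, 66 had a host, and in 60 (87%, 76.7 to 93.9) the region came within 1 kb of a boundary of that host. By distance from the nearer host boundary, 46 of 106 windows were marked at 0 to 1 kb (43.4%) and 18 of 72 at 1 to 2 kb (25%). Beyond that the counts were 1 of 79 at 2 to 5 kb, 1 of 82 at 5 to 10 kb and 0 of 454 above 10 kb, which allows up to 0.809%. In all, 64 of 178 within 2 kb were marked (36%, 28.9 to 43.5), against 2 of 615 farther away (0.325%, 0.0394 to 1.17). With 1 PPP2CA library in place of both, the share beyond 2 kb was 0.813% with PPP2CA 1 and 0.976% with PPP2CA 2. A window that reaches the host boundary must hold any peak lying at that boundary, so part of this relation follows from the windows themselves.

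Seen by strand, marked snoRNA genes lay near the 5′ end of the host. For the 688 snoRNA genes in hosts of known strand, 33 of 43 windows within 1 kb of the 5′ end were marked (76.7%, 61.4 to 88.2) and 20 of 49 at 1 to 2 kb (40.8%, 27 to 55.8). From the 5′ end the counts were then 2 of 83 at 2 to 5 kb, 0 of 51 at 5 to 10 kb and 0 of 462 farther in. Measured from the 3′ end, the counts were 12 of 52 within 1 kb (23.1%), 12 of 42 at 1 to 2 kb (28.6%), 23 of 74 at 2 to 5 kb (31.1%), 5 of 49 at 5 to 10 kb (10.2%) and 3 of 471 above 10 kb (0.637%). Short hosts have both ends close by, so genes near 1 end only were set apart. Of 25 that lay within 1 kb of the 5′ end and over 2 kb from the 3′ end, 19 were marked (76%, 54.9 to 90.6). Of 25 that lay within 1 kb of the 3′ end and over 2 kb from the 5′ end, 1 was marked (4%, 0.101 to 20.4), Snord99 in the short host Snhg12.

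**Figure D1:**
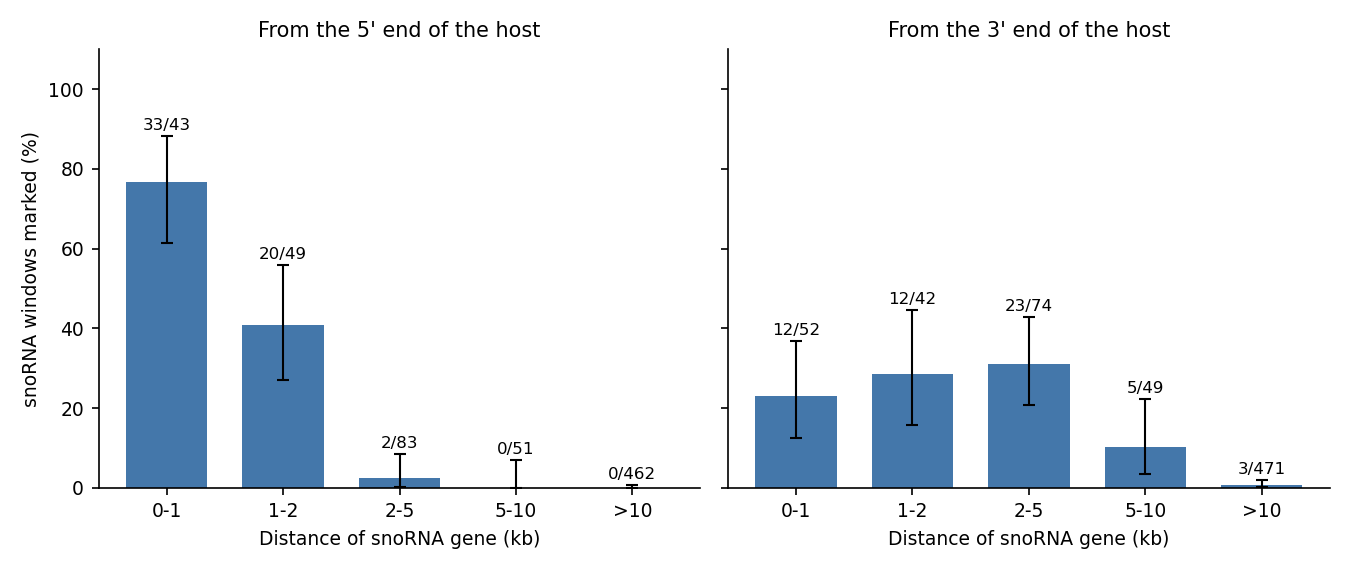
Share of snoRNA windows marked (%, bars, with exact 95% intervals) by distance of the snoRNA gene in kb from the 5′ end (left) and the 3′ end (right) of its host, for the 688 genes in hosts of known strand, with marked over all windows above each bar. The share is 76.7% in the first kb from the 5′ end and 0 of 462 above 10 kb, while from the 3′ end it is 23.1%, 28.6% and 31.1% in the first 3 bins, then 10.2% and 0.637%.

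Among hosts with a region at their 5′ end, the reach of the mark along the gene could be read in steps of 500 bp. All 7 snoRNA windows in the first step and all 25 in the second were marked, then 14 of 17 at 1000 to 1500 bp (82.4%), 5 of 24 at 1500 to 2000 bp (20.8%), 1 of 21 in the step from 2000 bp and 0 of 16 in the next. With a window flank of 1 kb and a median region width of 989 bp, a limit of this order is set by the geometry. The bases of the snoRNA genes themselves give a measure that has no flank. In the first kb from a host boundary 17.3% of snoRNA bases lay under a region, close to the 15.7% of all host bases at that distance, and 22 of 106 snoRNA genes were touched. From 1 to 2 kb 0% of 7640 snoRNA bases and 1.86% of host bases were covered, and from 2 to 5 kb 0% of 9058 and 0.371%. Above 10 kb it was 0% of 49258 snoRNA bases and 0.0477% of host bases.

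The 69 marked windows rested on 51 regions in or next to 50 hosts, and 12 of the regions served more than 1 window, 30 windows in all. A region covered part of the snoRNA gene itself in 24 of 69 windows (34.8%, 23.7 to 47.2). For 41 regions with an annotated start of the host, the summit lay at a median of 99 bp from that start in PPP2CA 1 and 117 bp in PPP2CA 2, and within 500 bp for 39 of 41 in each library. It lay upstream of the start in 21 and 17 of the 41 and downstream in 20 and 24. For the 55 windows of these regions, the summit was nearer to the host start than to the snoRNA gene in 53 and 52, and inside the snoRNA gene in 0 and 1. The median gap between summit and snoRNA gene was 884 and 840 bp.

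**Figure D2:**
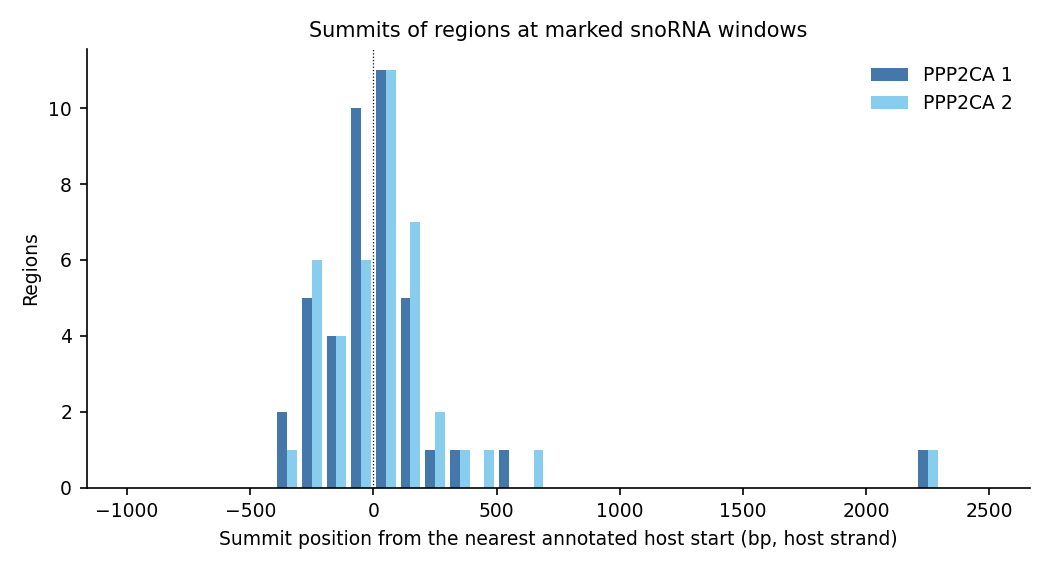
Number of regions at marked snoRNA windows by the position of their summit from the nearest annotated host start in bp on the host strand, in bins of 100 bp, with 1 bar per PPP2CA library. Of 41 regions, 39 have their summit within 500 bp of the start in each library, and the summit beyond 2000 bp belongs to the window of Snord93.

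The regions at marked windows held 14 to 226 fragments at the summit in PPP2CA 1 (median 44) and 17 to 263 in PPP2CA 2 (median 52). All 12438 PPP2CA regions without an IgG peak had medians of 23 and 25 fragments, and the 7509 of them at a protein-coding boundary had 28 and 31. The authors' fold over local background was 3.6 to 12.7 in PPP2CA 1 (median 7.92) and 4.24 to 12 in PPP2CA 2 (median 7.7). Of the 51 regions, 8 stood among the best 1000 peaks by −log10 q in PPP2CA 1 and 9 in PPP2CA 2. The ratio of PPP2CA 2 to PPP2CA 1 fragments was 0.77 to 1.74 over the 51 regions, with a median of 1.1. After division by the mean ratio of the backgrounds, 44 of the 51 PPP2CA 1 summits would still reach the 3 fragments of the lowest IgG summit. A call also depends on the local background, which did not enter this count. Whether an equal signal would have been called in an IgG library was therefore not tested.

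**Figure D3:**
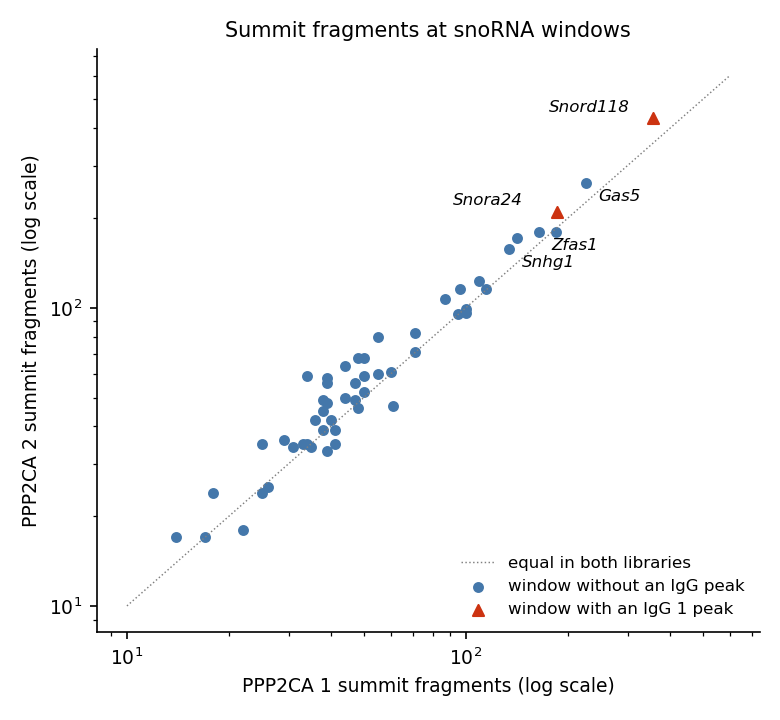
Summit fragments in PPP2CA 2 against PPP2CA 1 (log scales) at the 51 regions of marked snoRNA windows (circles) and at Snord118 and Snora24, whose windows also held an IgG 1 peak (triangles), with a dotted line of equal counts. The circles run along the line up to Gas5 at 226 and 263 fragments, and both triangles lie in the upper part of the plot.

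The 4 best ranked regions at marked windows lay at lncRNA hosts. Those of Gas5, Zfas1 and Snhg1 also came within 1 kb of a boundary of a neighbouring gene, Zbtb37, Znfx1 and Slc3a2 in turn. Their signal cannot be assigned to the host rather than the neighbour. Gas5, a lncRNA linked to growth arrest, had a region at chr1:161034488-161035661 with 226 fragments in PPP2CA 1 and 263 in PPP2CA 2, at folds of 10.3 and 10.7 and ranks of 164 and 134 in the 2 lists. It marked the snoRNA genes LOC115487643, LOC115487678 and LOC115487638, which begin 793, 1249 and 1456 bp from the 5′ end. The other 5 snoRNA genes of Gas5 run from LOC115487644 at 2081 bp over Snord47 at 3491 bp to LOC115487640 at 3707 bp, and were not marked. The promoter printed above lies inside this region, and the summits stood at −200 bp in PPP2CA 1 and −230 bp in PPP2CA 2 from the nearest annotated start.

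Zfas1, a lncRNA that runs antisense to the start of a neighbouring gene, had a region at chr2:167062369-167063521 with 164 and 180 fragments in PPP2CA 1 and 2, at folds of 12.7 and 11.6. It marked LOC115486178 at 539 bp, and Gm23201 at 2064 bp and Snord12 at 2359 bp were not marked. The region of 2410006H16Rik (chr11:62602545-62603556) held 184 and 179 fragments and marked Snord49b at 209 bp and Snord49a at 583 bp. The third snoRNA of that host, Snord65 at 1653 bp, held a peak in PPP2CA 2 only. Snhg1 had 134 and 158 fragments at chr19:8722754-8723991, which marked LOC115489078, LOC115489084, LOC115489083 and LOC115489082 at 506, 764, 1045 and 1381 bp. Its other 4 snoRNA genes, from LOC115489081 at 1605 bp to Snord22 at 2379 bp, were not marked. In each of these hosts the marked snoRNA genes were those nearest to the 5′ end.

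Most other Snhg hosts had weaker regions. In Snhg12 a region of 1523 bp (chr4:132308580-132310102) with 50 and 52 fragments in PPP2CA 1 and 2 marked all 4 snoRNA genes, Snora16a, Snora44, Snora61 and Snord99, at 787 to 2025 bp. Snhg3, which holds the U17 genes Snora73a and Snora73b, had 47 and 56 fragments, and both windows were marked at 707 and 1160 bp. Snhg5 had 48 and 68 fragments and 1 of 2 windows marked, and Snhg16 had 34 and 35 fragments and 1 of 3, Snord1c at 845 bp. Snhg7 had 25 and 24 fragments and its Snora17 window was marked, and Snhg15 had 48 and 46 fragments and its single window marked. Snhg4, Snhg6 and Snhg17 had a region at a boundary and no marked window. Over all lncRNA genes 12.6% had a region at a boundary. Taken as a class that leaves out Snhg14, 12 of 15 Snhg hosts with Gas5 had a region at a boundary (80%, 51.9 to 95.7). Of their 39 snoRNA windows, 18 were marked. Snhg14, with 203 snoRNA genes and none marked, had no region at a boundary and was counted with the imprinted clusters. The exceptions among the 15 were Snhg8, Snhg11 and Snhg18. The region of Snhg8 also held an IgG peak. Snhg11 and Snhg18 had a boundary peak of 10 fragments in PPP2CA 1 only and of 7 fragments in PPP2CA 2 only.

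**Figure D4:**
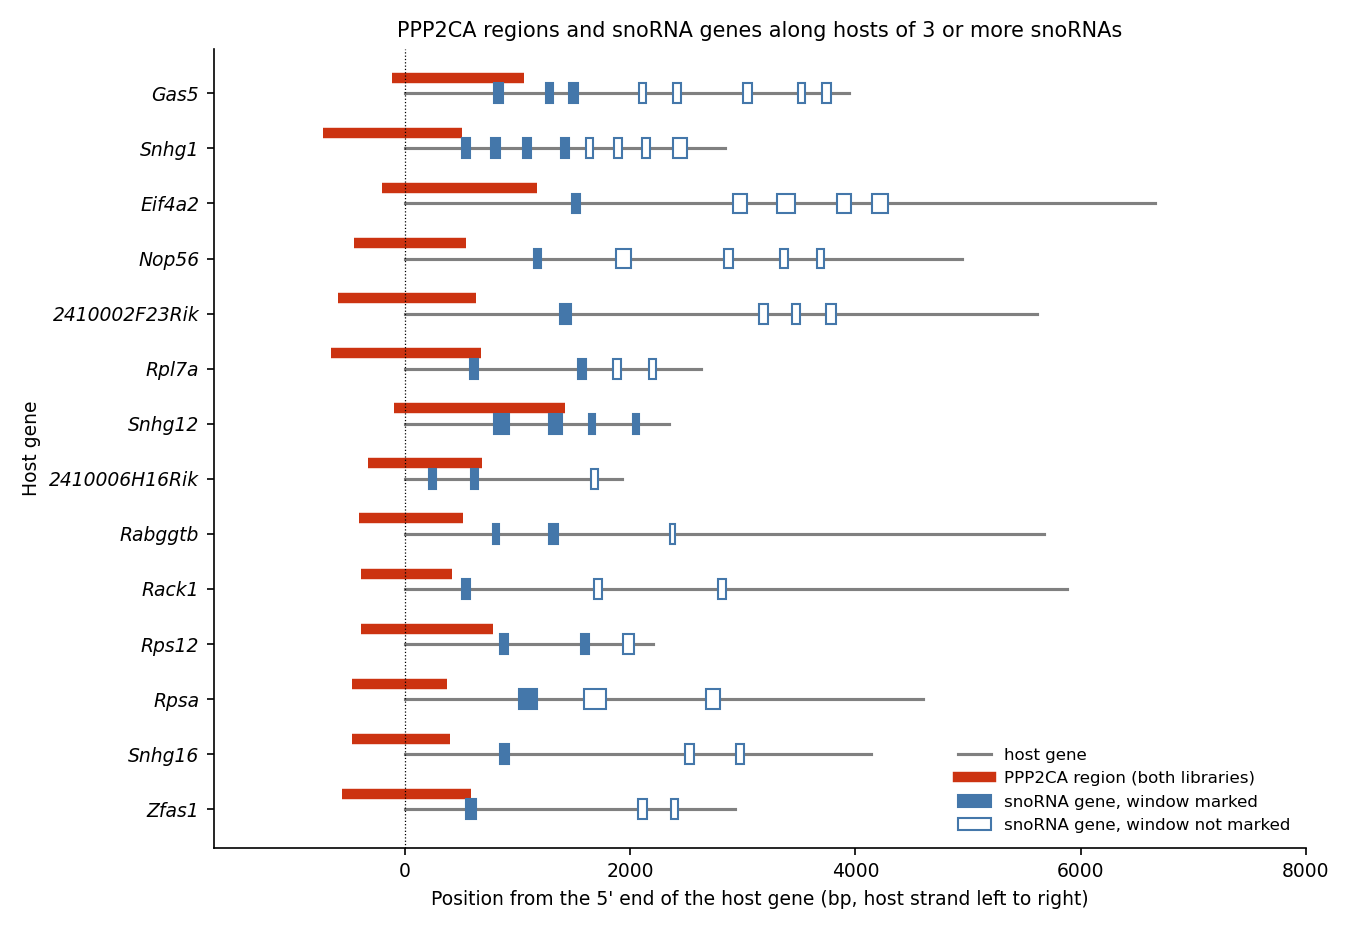
The 14 hosts of known strand with 3 or more snoRNA genes and at least 1 marked window, drawn to scale from the 5′ end of the host (bp), with PPP2CA regions in red, marked snoRNA genes filled and unmarked ones open (snoRNA genes are drawn at least 40 bp wide). Each region lies over the 5′ end and the filled boxes are the ones nearest to it, as in Gas5 with 3 of 8 filled, while Snhg12 has all 4 filled; the region of 2410002F23Rik also carries an IgG peak outside the snoRNA window.

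Ribosomal protein genes were the largest of the protein-coding host classes that were named. Of 30 such hosts 28 had a region at a boundary (93.3%, 77.9 to 99.2), and 23 of their 58 snoRNA windows were marked. Ribosomal protein genes without a snoRNA gene, taken by symbol, had one in 51 of 59 (86.4%, 75 to 94), so hosts did not stand apart from their class within these intervals. Rpl3 had 95 fragments in each library and marked Snord43. Rpl7a had 71 and 82 fragments and marked Gm23969 at 576 bp and LOC115489587 at 1533 bp, and 2 further snoRNA genes up to 2163 bp were not marked. Rps12 (60 and 61 fragments, 2 of 3 windows), Rpsa (61 and 47, 1 of 3) and Rpl23a (25 and 35, 1 of 3) were marked in part. The weakest region of all marked windows was that of Rpl6, with 14 and 17 fragments at LOC115490270.

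Some ribosomal protein hosts had a strong region at the start and no marked snoRNA. Rpl13a had 72 fragments in PPP2CA 1 and 88 in PPP2CA 2 at its boundary and none of its 4 snoRNA windows was marked, although they begin at 1282 to 2310 bp. Rpl4 had 66 and 77 fragments and none of 5 windows marked, at 1661 to 3736 bp. Rpl5 had 31 and 44 fragments and none of 3 marked, at 4047 to 6837 bp, and Rpl10 had 182 and 200 fragments with its single snoRNA gene unmarked at 1676 bp. The 2 ribosomal protein hosts without a region at a gene boundary of the table were Rps2 and Rpl17, and both had one inside the gene. In Rps2 the region (chr17:24719440-24720543, 142 and 171 fragments) marked Snora64, with summits 81 and 117 bp upstream of an annotated Rps2 start, and it also covers Snhg9, where it marked Snora78 at 133 bp. In Rpl17 the region chr18:75000187-75001034 (38 and 45 fragments) marked Snord58b, Gm23301 and Gm26202.

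Many other protein-coding hosts had a region at the start and no marked snoRNA window. A region stood at a boundary in 39.5% of all protein-coding genes and in 52.9% of protein-coding hosts outside the named classes. The Eif and Eef class, translation factors together with the kinase gene Eif2ak3, had a region at a boundary in 9 of 9 hosts (66.4 to 100%) and 1 of 16 snoRNA windows marked. That window was Snord2, 1485 bp into Eif4a2, an RNA helicase of translation initiation, whose region held 96 and 116 fragments in PPP2CA 1 and 2. Eif4a1, the paralogous helicase, had 381 and 433 fragments at its boundary, more than any marked window, and its 3 snoRNA genes at 2645 to 4447 bp were unmarked. The nucleolar protein genes Nop56, Nop58, Ncl and Dkc1 all had a region (39.8 to 100%) and 1 of 12 snoRNA windows marked. Nop56, a core protein of box C/D snoRNPs, had 44 and 64 fragments and marked Snord110 at 1148 bp, and Snord57 at 3659 bp was not marked. Ncl, the nucleolin gene, had 233 and 211 fragments and no marked window, its nearest snoRNA gene lying 3128 bp from the 5′ end. Hspa8, a heat shock cognate chaperone, had 335 and 341 fragments and 0 of 3 windows marked. Gnl3, the nucleostemin gene (133 and 136 fragments), Taf1d, a subunit of an RNA polymerase I factor (44 and 37), Ubap2 and Wdr43 also had a region and no marked window.

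Over all hosts, a region stood at a boundary in 235 of 460 (51.1%, 46.4 to 55.7). For protein-coding hosts it was 206 of 355 (58%, 52.7 to 63.2), against 39.5% of all protein-coding genes and 8403 of 21424 that were not hosts (39.2%, 38.6 to 39.9). For lncRNA hosts it was 29 of 105 (27.6%, 19.3 to 37.2), against 12.6% of all lncRNA genes and 1565 of 12534 that were not hosts (12.5%, 11.9 to 13.1). Of 358 hosts over 2 kb long with a known strand, 177 had a region at the 5′ end (49.4%) and 15 at the 3′ end (4.19%), and these 15 had one at the 5′ end as well. Of these hosts, the 288 protein-coding ones had a region at the 5′ end in 56.9% and at the 3′ end in 4.86%. The 70 lncRNA hosts had one in 18.6% and 1.43%. The background at the 5′ end was 43.0% of protein-coding and 10.8% of lncRNA genes, and at the 3′ end 3.87% and 1.98%. Hosts of a Snord or Snora gene had a region in 71 of 82 (86.6%, 77.3 to 93.1), and hosts of other entries only in 164 of 378 (43.4%, 38.3 to 48.6). Hosts of Snord or Snora genes had a median length of 4910 bp and the other hosts 64800 bp. The expression of the hosts was not measured in these libraries, and its part in these shares was not tested.

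**Figure D5:**
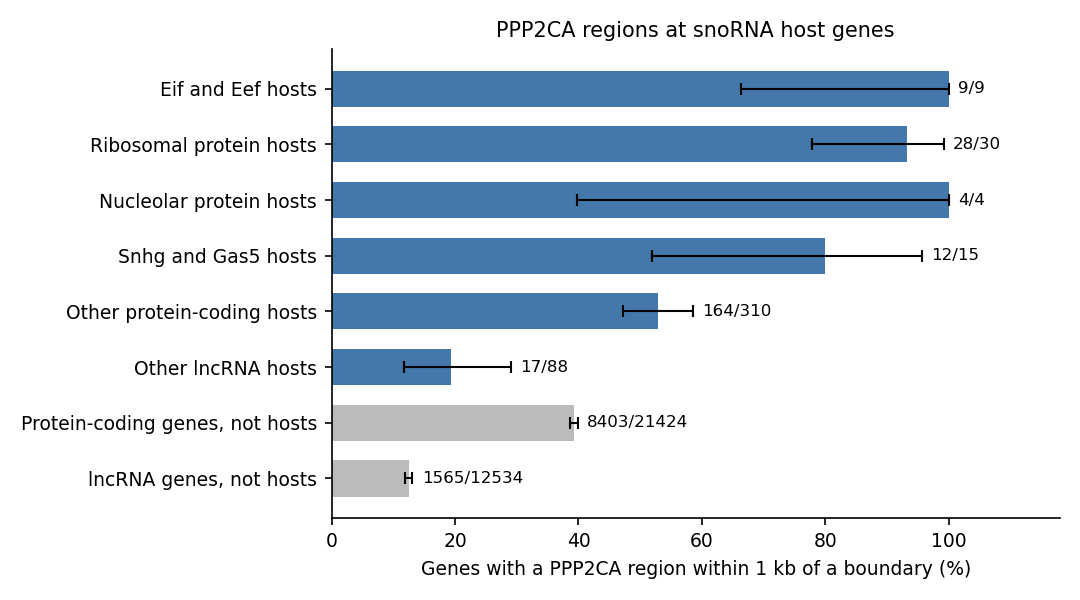
Share of genes with a PPP2CA region (both libraries, no IgG peak) within 1 kb of a gene boundary (%, with exact 95% intervals) for classes of snoRNA hosts (blue) and for genes that are not hosts (grey), with counts beside each bar. Ribosomal protein hosts stand at 28 of 30 and Eif and Eef hosts at 9 of 9, other lncRNA hosts at 17 of 88 and lncRNA genes that are not hosts at 1565 of 12534. The bar of Snhg and Gas5 hosts leaves out Snhg14.

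Marked and unmarked snoRNA genes of hosts that had a region lay at different distances from the host boundary. Of 339 snoRNA genes in such hosts, 59 windows were marked, at a median of 764 bp from the nearer boundary, and 280 were not, at a median of 5780 bp. These hosts were chosen for a region at a boundary, and a window reaches only 1 kb past its snoRNA gene. The difference therefore follows in large part from these definitions. In hosts without a region at a boundary 7 of 454 windows were marked.

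The imprinted clusters held no marked window. Snhg14, the long transcript of the Prader-Willi region (chr7:59272737-60450177, − strand), holds 203 snoRNA genes of the table, all over 10 kb from its boundaries, and makes up 203 of the 454 at that distance. None was marked, and 1 (Gm23446) had a peak of 11 fragments in PPP2CA 2 only. Its first snoRNA gene lies 469232 bp from the 5′ end of the host. Rian, in the imprinted Dlk1 region, holds 11 snoRNA genes at 27129 to 53180 bp and none was marked. Neither host had a region at a boundary, and Ipw, a lncRNA with 3 snoRNA genes of which the first lies 276 bp from the 5′ end, had none either. With Snhg14 left out, 69 of 1127 windows were marked.

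Only 3 of 537 snoRNA genes without a host were marked. Snord13 encodes U13, which is transcribed from its own promoter (chr8:31149861-31149958), and it lay under a region at chr8:31149217-31150595 with 87 fragments in PPP2CA 1 and 107 in PPP2CA 2, which also reaches a boundary of Tti2. Gm22711 shared a region of 71 fragments in each library (chr11:106500759-106501631) with Snord104 in Gm36220, at a boundary of Tex2. Gm26306 lay next to a region with 55 and 80 fragments at a boundary of Slc37a4. All 3 windows therefore lay at the boundary of a neighbouring gene.

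The marked windows more than 2 kb from every host boundary were 2. LOC115487266 lies 7062 bp inside the lncRNA Gm34264, and its region (chr9:61321858-61322821) held 35 and 34 fragments in PPP2CA 1 and 2, with no protein-coding or lncRNA boundary within 1 kb of it. Snord58b in Rpl17 is the other, at 2090 bp.

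The windows with peaks of both PPP2CA libraries and of IgG were those of Snord118 and Snora24. Snord118 encodes U8, a box C/D RNA with a promoter of its own (chr11:69073426-69073562). Its region (chr11:69073155-69074559, also at a boundary of Tmem107) held 357 fragments in PPP2CA 1 and 433 in PPP2CA 2, at ranks of 65 and 41, more than any marked window, and 10 fragments in IgG 1. Divided by the mean ratio of PPP2CA to IgG backgrounds, the PPP2CA 1 summit would correspond to 37.7 fragments in an IgG library. Snora24 in Snhg8 held 186 and 210 fragments in PPP2CA 1 and 2 and 9 in IgG 1, where the PPP2CA 1 summit divided in the same way is 19.6. The other IgG 1 peaks held 3 fragments, at Gm22150, with 7 fragments in PPP2CA 2 only, and at LOC115486275, with no PPP2CA peak. The window counts therefore leave out Snord118, where the PPP2CA signal was the highest of all snoRNA windows, because of an IgG peak that was lower in proportion.

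Of 22 listed genes for snoRNP proteins and their assembly factors, 21 were in the table and 18 had a region at a boundary, beside a background of 39.5% of protein-coding genes. Fbl, the methyltransferase of box C/D snoRNPs, had 113 fragments in PPP2CA 1 and 96 in PPP2CA 2. Dkc1, the pseudouridine synthase of box H/ACA snoRNPs, had 41 and 42, and its partners Nhp2 and Gar1 had 74 and 70 and 26 and 22. Wrap53, which carries small Cajal body RNAs to that body, had 98 and 119. The assembly factors Nufip1, Shq1 and Naf1 had 40 and 27, 20 and 22, and 12 and 17, and Znhit6 was lowest of the 18 with 6 and 10. Nop10, Ruvbl2 and Pih1d1 had no region.

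The base composition of host promoters moved with the regions. A RefSeq promoter was matched for 371 of the 460 hosts. The median GC content was 60.7% in 45 promoters of hosts of marked windows, 62.3% in 174 of hosts with a region and no marked window, and 51.3% in 239 of hosts without a region, against 52.7% in all 32851 promoters and 61.3% in the 10252 of genes with a region. The median number of CG dinucleotides was 23, 24 and 7 in the 3 groups of hosts. Tagmentation and amplification can depend on base composition, and its part in the regions was not tested.

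A pyrimidine run, a C followed by at least 4 bases that are C or T and beginning within 20 bases of the start on the strand of the gene, stood in 68.9% of the promoters of hosts of marked windows. It stood in 47.7% of hosts with a region and no marked window, 54.4% of hosts without a region and 49.4% of all promoters. TATAAA, searched like the motifs that follow on both strands, was in 31.1%, 6.9% and 18% of the 3 groups of hosts and in 13.6% of all promoters. TGACGTCA was in 11.1%, 4.02% and 1.67%, against 1.79% of all. CCGGAAG was in 22.2%, 18.4% and 4.6%, against 8.86%, and GGGCGG in 68.9%, 69.5% and 33.1%, against 35.7%. CACGTG was in 11.1%, 16.7% and 9.21%, against 7.15%, and CCAAT in 40%, 38.5% and 36.4%, against 37.4%. In the 10252 promoters of protein-coding and lncRNA genes with a region at a boundary, the pyrimidine run stood in 49.3% and TATAAA in 6.8%. In that set TGACGTCA was in 3.5%, CCGGAAG in 18.7%, GGGCGG in 63.9%, CACGTG in 10.4% and CCAAT in 37.9%. The hosts of marked windows include some, such as Rps2, 2410002F23Rik and Gm42228, without a region free of IgG peaks at a boundary. These are matches of letters and were given no test.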

How the data were processed

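CUT&Tag libraries of mouse haematopoietic stem cells, 2 with a PPP2CA antibody and 2 with IgG, were grouped and numbered by their titles. The authors deposited 1 narrowPeak list per library. Per the submitters' processing notes the builds were GRCm38 and mm10 and the tools MACS2, BWA, Trimmomatic, HOMER, deepTools and ChIPseeker, with no role or setting stated. Filters, and whether IgG was a control in the calling, are not given in the sources used here. For every peak the deposited list gives a fold (ratio of summit to local background within that library), the −log10 p and −log10 q of the summit, and a whole-number score that follows the −log10 q. These are the authors' values and were used to describe or rank peaks within a list.

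Summit fragments were recovered from the deposited fold, read as (fragments + 1) / (background + 1), and the −log10 p, read as a Poisson tail. Whole numbers came out for 100% of peaks, with a relative error of at most 8.8e-06. Peaks of both PPP2CA lists were merged, overlap meant at least 1 bp, and a region needed both libraries. Read totals were not used here.

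Genes came from the RefSeq table of GRCm38.p6, which gives no strand, and the strand came from the RefSeq promoter table (371 of 460 hosts). The 95% intervals are exact (Clopper-Pearson) and cover only counting error. No test was run across loci. The rule for named genes took the 20 best marked windows, those beyond 2 kb from a host boundary, those with an IgG peak, U8 and U13, hosts of 3 or more snoRNA genes, hosts by class and a list of snoRNP genes. U3 genes were not analysed here. Some items the rule or the marker lists named are not reported here. Weak windows, windows without a host and windows with a peak in 1 library were chosen for naming once their values had been seen. The loci, lists and alternatives were chosen with earlier results of these data known. Alternatives changed the flank, overlap, peak threshold, libraries and choice of host. The recovery of fragments and the overlap counts were tested on simulated data. Python 3.11.15, numpy 2.4.6, pandas 2.3.3, scipy 1.17.1 and matplotlib 3.10.9 were used.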

Additional observations from a re-analysis of the deposited data

How the results depend on the processing

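The counts depended mostly on the width of the window. Without a flank, 20 windows held a peak of both PPP2CA libraries, 20 were free of IgG peaks (18 of them among the 69), 17 of these reached a host boundary, the share beyond 2 kb was 0 and IgG had 0. With the summit required inside the window the counts were 46, 44 and 38. Among Snord and Snora genes alone 36 windows held both. IgG peaks were left in 1 window at a −log10 q of 5 or more and in 0 at 20 or more fragments. Leaving out 1 library in turn gave 76 to 84 windows with a PPP2CA peak, 69 to 81 of them free of IgG peaks, 61 to 66 at a host boundary, a share of 0.813% to 0.976% beyond 2 kb, 247 to 253 hosts, and 0 to 4 IgG windows, the 0 without IgG 1. Each of these alternatives takes fewer bases, peaks, genes or libraries into the count by its construction, and no other cause was tested. In all, 43 values under alternatives stayed within 1.5 times the reported counts or within the interval. Alternatives chosen after seeing the data left out Snhg14 (69 windows), counted an IgG peak anywhere on the region (68) or measured from the nearest annotated start upstream, where 36 of 45 were marked at 0 to 1 kb (80%) and 18 of 50 at 1 to 2 kb (36%). No paired analysis was possible because the results are counts of windows that come from no test. The low depth of the IgG libraries limits how many of the weaker regions could show an IgG peak.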

Other observations

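A peak of 1 PPP2CA library only lay in 18 snoRNA windows, 5 with PPP2CA 1 and 13 with PPP2CA 2, and 10 of the 18 lay in a host with a region at a boundary. Some were strong peaks whose edge came within reach of the window in 1 library, as Snord65 in 2410006H16Rik (179 fragments in PPP2CA 2), LOC115487269 in Snhg5 (68 in PPP2CA 2) and Snord35b (75 in PPP2CA 1). Others were weak, as LOC115487891 (5 fragments in PPP2CA 1), Gm23482 (5 in PPP2CA 2) and Gm24793 (6 in PPP2CA 2).

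Weaker marked windows outside ribosomal protein hosts included those of Snora26 in Dancr, with 17 fragments in each PPP2CA library, and of Snord61 in Rbmx on the X chromosome, with 18 fragments in PPP2CA 1 and 24 in PPP2CA 2. Snord93, in the lncRNA Gm42228, had 22 and 18 fragments, and the summit lay 2290 bp in PPP2CA 1 and 2219 bp in PPP2CA 2 from the annotated start of that host, at a boundary of 2700038G22Rik.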
